A study of Mus musculus with 9 samples.

Results

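Genes of glucose uptake, glycolysis, the pentose phosphate path and glycogen metabolism were followed in cells rinsed from the peritoneal cavity of diabetic and nondiabetic Apoe-deficient mice. Of 36 genes of these routes, 31 were found by their symbol in the deposited table of 41096 genes, and all 31 passed the filter on low values. A further 4 genes (Pgk1, Eno1, Gapdh and Pfkfb2) had a protein-coding row without a symbol and were recognised by the UniProt entry in the table's own description. Their values are given apart and are in none of the counts over the 31 genes. Pfkfb2 is part of the summed FPKM behind the Pfkfb shares. All 4 are among the genes checked for samples that stood apart from their group. Pgam1 was not analysed here. Rows were taken by gene name and not by a measured value, but the genes were chosen with earlier results of these data known.

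The diabetic group held 4 samples and the control group 5. Every mouse carried the APOE-/- genotype, which raises plasma cholesterol and is used as a model of atherosclerosis. Diabetic mice received streptozotocin, a toxin of the insulin-producing beta cells, at 40 mg/kg intraperitoneally on each of 5 days from the age of 8 weeks, and control mice received citrate buffer instead. All mice then ate a western diet for 8 weeks, were injected with 1.5 mL of 3% thioglycollate, which irritates the peritoneum and recruits leukocytes, and were killed 3 days later, when the exudate was washed out with 10 mL of phosphate-buffered saline. The labels call the cells peritoneal macrophages, give the same treatment to both groups apart from the toxin, and name no sorting or adherence step. Whether each sample is 1 mouse or a pool of mice is not stated, so p-values cover only the spread among the samples as collected. Effects of high glucose, of lost insulin and of the toxin itself cannot be told apart in this design.

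Glucose enters cells through transporters of the SLC2 family and is trapped as glucose 6-phosphate by hexokinases. From there it can run down glycolysis to pyruvate, enter the pentose phosphate path, which makes NADPH and ribose phosphate, or be stored as glycogen. Activated macrophages are known for a high use of glycolysis, and their NADPH oxidase and nitric oxide synthase draw on NADPH from the pentose phosphate path.

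The libraries held 14156421 to 16169060 reads in genes each, and the 31 genes had between 60 reads (Aldoc, lowest sample) and 34909 reads (Pkm, highest sample). Values are FPKM, reads per kilobase of gene and per 1e6 scaled reads, so levels can be compared between genes on a per-length scale. Apoe had 282, 296, 213 and 135 FPKM in diabetic samples 1 to 4, against 231, 373, 286, 262 and 238 FPKM in control samples 1 to 5 (log2 fold change -0.30, SE 0.23, limma adjusted p = 0.47). A value per gene does not show which part of the gene was read, so it does not check the genotype. Macrophage markers were abundant in every sample: the summed level of 12 measured markers was 6088 to 10247 FPKM in diabetic samples and 7722 to 11570 FPKM in control samples. Of the 11 that could be tested, 1 fell (Mrc1, the mannose receptor, log2 fold change -1.13, SE 0.25, adjusted p = 0.033) and 0 rose. The fold change was negative in 10 of these 11, with a median of -0.20, and their mean log2 level relative to the control mean was -0.27, -0.28, 0.17 and -0.60 in diabetic samples 1 to 4 and -0.14, 0.20, -0.03, 0.05 and -0.09 in control samples 1 to 5.

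Of the marker lists, that of T cells had the most calls. In diabetic samples 19 of 20 rose (18 by voom), and their summed level was 510, 925, 225 and 762 FPKM in diabetic samples 1 to 4, against 104, 117, 139, 124 and 86.0 FPKM in control samples 1 to 5. Cd3e, a chain of the T cell receptor complex, is an example (log2 fold change 2.21, SE 0.29, adjusted p = 0.0055), and no marker of this list was at 0 in every sample. Among B cell markers 4 of 11 rose, with summed levels of 1616 to 3468 FPKM in diabetic samples and 1055 to 2219 FPKM in control samples. Neutrophil markers did not pass (0 of 7 by limma on FPKM, by voom and at an unadjusted p below 0.05), but they varied widely within groups, with sums of 121 to 540 FPKM in diabetic samples and 117 to 1149.5 FPKM in control samples. In the other lists 2 of 8 natural killer cell markers and 1 of 6 monocyte markers rose, 2 of 5 dendritic cell markers rose and 1 fell, and 1 of 3 platelet markers fell. A marker could pass the filter of 1 FPKM in 4 samples through the diabetic samples alone. The counts of markers that rose are therefore a description and no support. Over all genes tested, 2.08% fell and 2.68% rose by limma on FPKM, and 22.4% had an unadjusted p below 0.05. Of 3 eosinophil, 6 mast cell, 9 resident macrophage, 8 mesothelial and 2 erythroid markers 0 passed, by limma on FPKM and by voom, while 2, 4, 3, 2 and 1 of them had an unadjusted p below 0.05. Glucose genes are active in all of these cells, so for every value that follows, a smaller share of a cell type and less RNA per cell cannot be told apart. The part of the cell mixture in the results was not tested.

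Across the 31 genes, 4 fell in diabetic samples and 0 rose (5 and 0 by voom on the reads, which adds Hk2). The 4 were Tpi1 of glycolysis, Pfkfb4, which sets the level of a glycolysis regulator, and Tkt and Pgd of the pentose phosphate path. By the same rule, a limma adjusted p below 0.05 over all 11193 genes tested, 2.08% of all genes fell and 2.68% rose. In 5 of the 31 genes (the same 4 and Pkm) every diabetic sample lay below every control sample, and in 0 every diabetic sample lay above every control sample. Over all genes tested, such a gap was seen in 4.60% in the lower direction and in 4.82% in the higher direction. At an unadjusted p below 0.05 the count was 9 of 31, all of them lower in diabetic samples, against 22.4% of all genes in either direction. The fold change was negative in 23 of 31 genes with a median of -0.14, against 52.3% negative and a median of -0.013 over all genes tested. The general macrophage markers had a median of -0.20 in the same direction. Resident macrophage markers (8 of 9 positive, median 0.27) and monocyte markers (4 of 6 positive, median 0.44) went the other way. The part of these lists in the members' values was not tested. The count of 4 was not stable to the loss of a sample: it was 0 without diabetic sample 1, 2 or 4 or control sample 3, 1 without control sample 1, 2 without control sample 4 or 5, 3 without control sample 2 and 6 without diabetic sample 3.

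**Figure D1:**
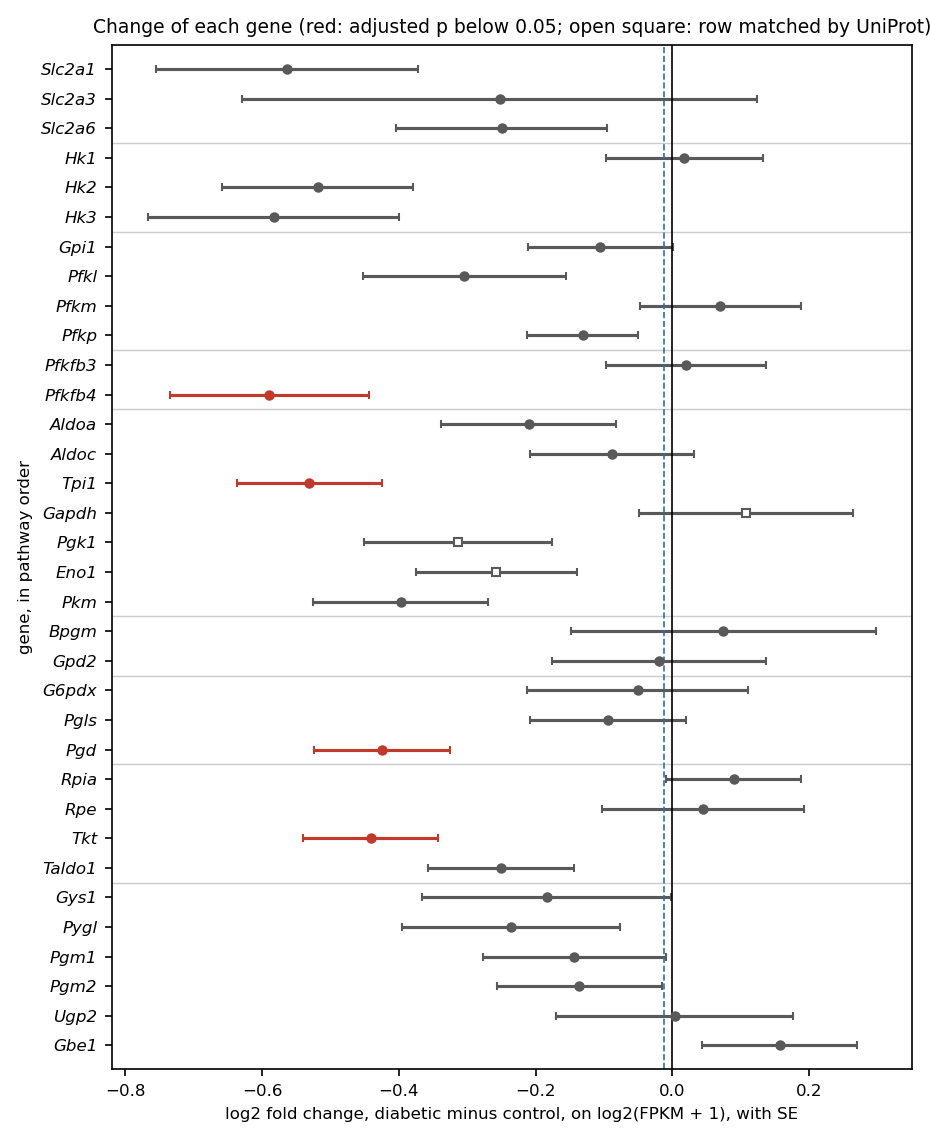
Log2 fold change of each gene (diabetic minus control, on log2(FPKM + 1), horizontal axis) with its standard error, in pathway order from glucose transporters to glycogen. Red points passed at an adjusted p below 0.05, open squares are the 3 tested rows recognised by their UniProt entry, the solid line marks 0 and the dashed line marks the median of all genes tested (-0.013); the 4 red points, Tpi1, Tkt, Pgd and Pfkfb4, lie between -0.59 and -0.43.

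Tpi1, triose phosphate isomerase, interconverts the 3-carbon products of aldolase and was the member with the smallest p. It had 191, 201, 193 and 183 FPKM in diabetic samples 1 to 4, against 249, 273, 305, 254 and 314 FPKM in control samples 1 to 5. The groups did not overlap, and the diabetic samples lay close together. The means were 192 ± 7.46 FPKM in diabetic samples (SD, n = 4) and 279 ± 29.6 FPKM in control samples (SD, n = 5), a log2 fold change of -0.53 (SE 0.11, adjusted p = 0.022). With each of the 9 samples removed in turn, Tpi1 passed 5 times, and its fold change lay between -0.57 and -0.49 under all alternatives tried. Other rows that match Tpi1, such as pseudogene copies, took 0.728% of the reads of all its rows.

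Tkt encodes transketolase, which moves 2-carbon units between sugar phosphates and links the pentose phosphate path back to glycolysis. Its level was 57.6, 57.6, 58.8 and 60.1 FPKM in diabetic samples 1 to 4, against 73.6, 92.4, 85.7, 74.9 and 74.4 FPKM in control samples 1 to 5. The groups did not overlap, and the coefficient of variation was 2.06% among diabetic samples and 10.5% among control samples. The log2 fold change was -0.44 (SE 0.10, adjusted p = 0.031), and Tkt passed in 3 of the 9 fits without 1 sample.

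Pgd encodes 6-phosphogluconate dehydrogenase, the NADPH-making step after glucose 6-phosphate dehydrogenase and lactonase. It had 60.3, 64.7, 60.0 and 57.5 FPKM in diabetic samples 1 to 4, against 75.8, 88.6, 82.9, 72.1 and 90.5 FPKM in control samples 1 to 5, again without overlap. The log2 fold change was -0.43 (SE 0.10, adjusted p = 0.037), and Pgd passed in 2 of the 9 fits without 1 sample.

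Pfkfb4 encodes one of the enzymes that make and break fructose 2,6-bisphosphate, the main activator of phosphofructokinase. Its level was 8.08, 7.71, 11.7 and 9.20 FPKM in diabetic samples 1 to 4, against 13.3, 12.6, 15.0, 12.2 and 18.3 FPKM in control samples 1 to 5. Diabetic sample 3 came close to the lowest control sample, but the groups did not overlap. The log2 fold change was -0.59 (SE 0.15, adjusted p = 0.045), and this call held in 1 of the 9 fits without 1 sample, the fit without diabetic sample 3.

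**Figure D2:**
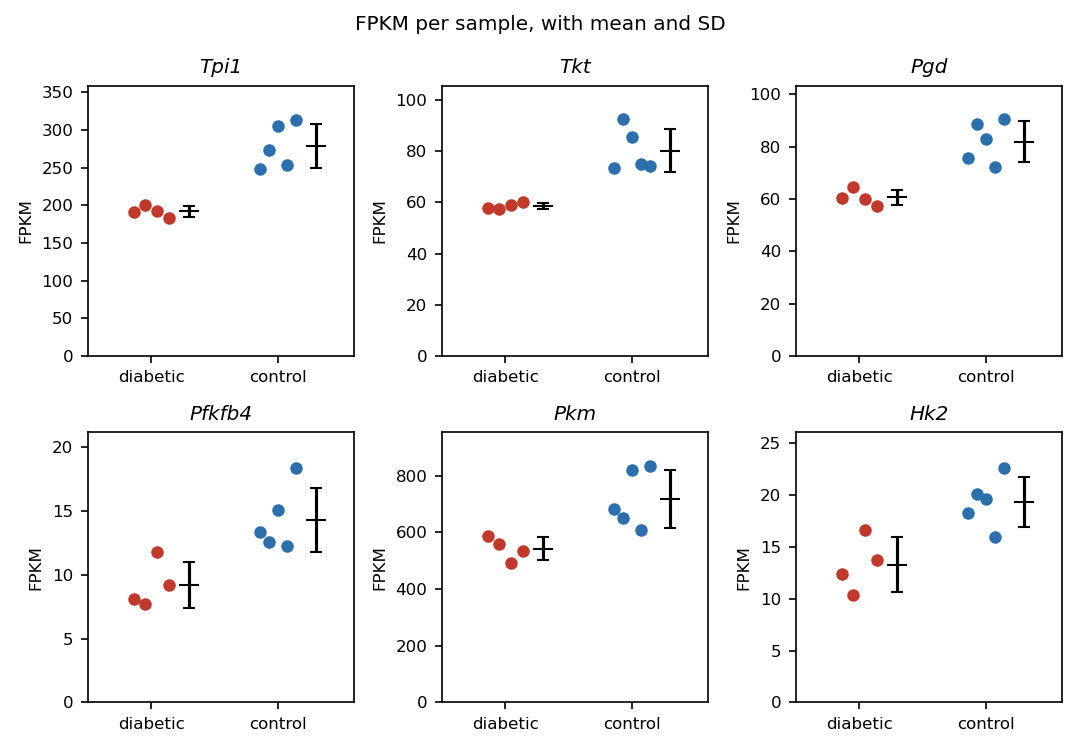
FPKM of Tpi1, Tkt, Pgd, Pfkfb4, Pkm and Hk2 (vertical axes, from 0, with a scale for each gene) in the 4 diabetic samples (red, left) and the 5 control samples (blue, right), with the mean and SD as black bars. Diabetic and control points do not overlap for the first 5 genes; for Hk2 the highest diabetic sample (16.6 FPKM) lies above the lowest control sample (16.0 FPKM).

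The promoters of these 4 genes are shown because these are the members that passed. They were taken from RefSeq on GRCm38.p6 and run from 250 bases before to 50 bases after an annotated start. Capitals mark matches on either strand to ACGTG or GCGTG, the core of the hypoxia response element that HIF factors bind, to CACGTG, an E-box that contains ACGTG, and to TGACNNNGC, the core of the antioxidant response element. Tpi1 lies on chromosome 6 (chr6:124814109-124814408, minus strand) and Tkt on chromosome 14 (chr14:30548881-30549180, plus strand). For Pgd on chromosome 4 the first of 2 listed starts is shown (chr4:149166656-149166955, minus strand), and Pfkfb4 lies on chromosome 9 (chr9:108991652-108991951, plus strand).
Tpi1: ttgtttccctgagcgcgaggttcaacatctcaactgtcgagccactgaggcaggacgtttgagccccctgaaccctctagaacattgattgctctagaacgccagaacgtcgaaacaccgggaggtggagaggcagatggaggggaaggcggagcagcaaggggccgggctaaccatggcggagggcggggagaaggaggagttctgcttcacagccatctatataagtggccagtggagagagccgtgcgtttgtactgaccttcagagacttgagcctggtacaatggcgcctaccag
Tkt: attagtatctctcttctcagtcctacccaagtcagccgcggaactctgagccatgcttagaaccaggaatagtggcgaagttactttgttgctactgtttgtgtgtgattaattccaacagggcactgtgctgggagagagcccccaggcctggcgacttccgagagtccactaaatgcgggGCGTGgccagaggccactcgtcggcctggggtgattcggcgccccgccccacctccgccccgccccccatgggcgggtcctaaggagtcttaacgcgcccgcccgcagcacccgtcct
Pgd: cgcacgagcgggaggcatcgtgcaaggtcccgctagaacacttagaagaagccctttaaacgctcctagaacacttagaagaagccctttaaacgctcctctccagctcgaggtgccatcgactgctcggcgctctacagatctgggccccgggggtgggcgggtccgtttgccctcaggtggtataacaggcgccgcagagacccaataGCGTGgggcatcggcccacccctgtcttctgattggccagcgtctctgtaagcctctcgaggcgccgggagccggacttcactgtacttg
Pfkfb4: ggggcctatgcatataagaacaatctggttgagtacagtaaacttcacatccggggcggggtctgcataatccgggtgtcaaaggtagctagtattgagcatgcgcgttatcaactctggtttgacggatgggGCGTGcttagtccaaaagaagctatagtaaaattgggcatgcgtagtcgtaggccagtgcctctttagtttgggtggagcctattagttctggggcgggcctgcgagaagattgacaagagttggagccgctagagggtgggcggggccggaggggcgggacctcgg

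The windows shown for Tkt, Pgd and Pfkfb4 each hold 1 match to GCGTG, and the window of Tpi1 holds none of the 4 motifs. The window of the second listed start of Pgd, not shown, holds 1 match to TGACNNNGC and 0 to the other motifs. Among all members, 30 of 31 had a promoter in the table, with 42 promoters in all, since some genes have several starts. Promoters on chromosome 18 were not used in any set. ACGTG occurred in 42.9% of the member promoters, against 26.2% of the 10069 promoters of genes tested and 19.6% of all 32851 promoters used. GCGTG occurred in 45.2% of member promoters, against 50.5% of promoters of genes tested and 32.4% of all promoters. CACGTG occurred in 4.76%, 10.3% and 7.15% of the same 3 sets, and TGACNNNGC in 11.9%, 14.8% and 12.4%. A match is a description of letters in a window and not a bound site. The 15 members with ACGTG included Slc2a1, Hk2 and Pkm but none of the 4 genes that fell.

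Along the route of glucose, the 3 transporters all had lower means in diabetic samples and 0 passed, by limma on FPKM and by voom. Slc2a1 encodes GLUT1, the basal glucose transporter of many cells. It had 19.8, 15.4, 17.5 and 20.2 FPKM in diabetic samples 1 to 4, against 29.3, 17.9, 30.4, 24.0 and 39.4 FPKM in control samples 1 to 5. Control sample 2 fell among the diabetic values, while the other 4 control samples lay above all of them. The log2 fold change of -0.56 (SE 0.19) had an adjusted p of 0.12, and the gene passed with array weights and without control sample 2 (-0.71, adjusted p = 0.035).

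Slc2a6, which encodes a transporter of lysosomal membranes, was the most abundant of the 3 by FPKM. Its level was 39.0, 30.7, 51.0 and 39.9 FPKM in diabetic samples 1 to 4, against 42.0, 58.8, 45.5, 51.0 and 40.7 FPKM in control samples 1 to 5 (log2 fold change -0.25, SE 0.15, adjusted p = 0.37). Diabetic sample 3 matched the second-highest control value, so the groups overlapped. Slc2a3, which encodes the high-affinity transporter GLUT3, was low and very uneven, with 2.87, 3.23, 3.27 and 5.46 FPKM in diabetic samples 1 to 4 and 6.31, 2.08, 5.75, 2.03 and 9.85 FPKM in control samples 1 to 5 (log2 fold change -0.25, SE 0.38, adjusted p = 0.74). Its control values moved with the neutrophil markers, whose mean log2 level relative to the control mean was 0.65, -1.20, 0.39, -1.21 and 1.37 in control samples 1 to 5, and -1.20, -0.52, -0.24 and 0.31 in diabetic samples 1 to 4. Whether neutrophils supplied this RNA was not tested.

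Of the 3 hexokinases 0 passed by limma on FPKM, 1 passed by voom (Hk2), and 2 had an unadjusted p below 0.05. Such an unadjusted p was seen in 22.4% of all genes tested. Hk2, the inducible isozyme, had 12.4, 10.3, 16.6 and 13.8 FPKM in diabetic samples 1 to 4, against 18.3, 20.1, 19.7, 16.0 and 22.6 FPKM in control samples 1 to 5. The groups overlapped by diabetic sample 3 alone. The log2 fold change of -0.52 (SE 0.14) had an adjusted p of 0.060, and Hk2 passed by voom (adjusted p = 0.041), with array weights and without diabetic sample 3. Hk3, a myeloid-enriched isozyme, had 42.1, 36.3, 50.6 and 36.3 FPKM in diabetic samples, against 47.9, 87.7, 63.7, 69.4 and 48.5 FPKM in control samples (log2 fold change -0.58, SE 0.18, adjusted p = 0.095), with diabetic sample 3 above control samples 1 and 5. It passed without diabetic sample 3 and when scaled to the sample sum. Hk1, the constitutive isozyme, averaged 13.02 ± 1.35 FPKM in diabetic samples and 12.9 ± 1.62 FPKM in control samples (log2 fold change 0.02, SE 0.11, adjusted p = 0.94).

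The make-up of the step is given on the per-length scale. Hk1 made up 20.5%, 21.4%, 17.3% and 18.4% of summed hexokinase FPKM in diabetic samples 1 to 4, against 16.5%, 11.7%, 14.5%, 10.7% and 15.2% in control samples 1 to 5, and these shares did not overlap. Hk3 remained the largest part, 61.0% ± 1.27 in diabetic samples and 65.6% ± 6.60 in control samples, and Hk2 held 19.6% ± 2.29 and 20.7% ± 4.45. Shares of a whole are bound to each other, so they are given as a description with no test.

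The next steps, glucose 6-phosphate isomerase (Gpi1) and the 3 phosphofructokinases, had small differences. Gpi1 averaged 82.5 ± 5.30 FPKM in diabetic samples and 89.1 ± 9.85 FPKM in control samples (log2 fold change -0.11, SE 0.11, adjusted p = 0.60). Pfkl, the liver-type phosphofructokinase and the most abundant here, had 46.9, 43.0, 35.3 and 41.8 FPKM in diabetic samples, against 49.2, 47.0, 60.3, 40.0 and 65.0 FPKM in control samples (log2 fold change -0.30, SE 0.15, adjusted p = 0.25). Control sample 4 was lower than 3 of the 4 diabetic samples. Pfkp, the platelet type, varied least within groups (14.2 to 15.4 FPKM in diabetic samples and 15.3 to 17.6 FPKM in control samples) and had a log2 fold change of -0.13 (SE 0.08, adjusted p = 0.37). Pfkm, the muscle type, was near 2 FPKM in every sample (log2 fold change 0.07, SE 0.12, adjusted p = 0.77). Pfkl made up 70.9% ± 2.91 of phosphofructokinase FPKM in diabetic samples and 73.6% ± 3.54 in control samples, with overlap.

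Beside Pfkfb4, the same activator is made by Pfkfb3, known as the inducible enzyme with the highest ratio of kinase to phosphatase activity. Pfkfb3 had 9.36, 10.2, 12.9 and 10.1 FPKM in diabetic samples, against 11.8, 9.78, 9.55, 9.27 and 11.9 FPKM in control samples (log2 fold change 0.02, SE 0.12, adjusted p = 0.94). A difference in change between Pfkfb3 and Pfkfb4 was not tested. Pfkfb3 held 51.8%, 55.4%, 51.2% and 50.9% of the summed FPKM of the 3 Pfkfb genes in diabetic samples 1 to 4, against 45.4%, 42.4%, 37.4%, 41.8% and 38.3% in control samples 1 to 5. Pfkfb4 held 44.9% ± 2.29 in diabetic samples and 55.8% ± 3.30 in control samples. Both shares were without overlap, which is a description with no test. Pfkfb2, one of the rows recognised by UniProt entry, lay under the filter with 0.647, 0.527, 0.511 and 0.530 FPKM in diabetic samples and 0.879, 0.712, 0.968, 0.645 and 0.789 FPKM in control samples, from 46 to 87 reads a sample. It was the 1 gene under the filter, with a log2 difference of -0.21 and an exact two-sided permutation p of 0.032, unadjusted.

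**Figure D3:**
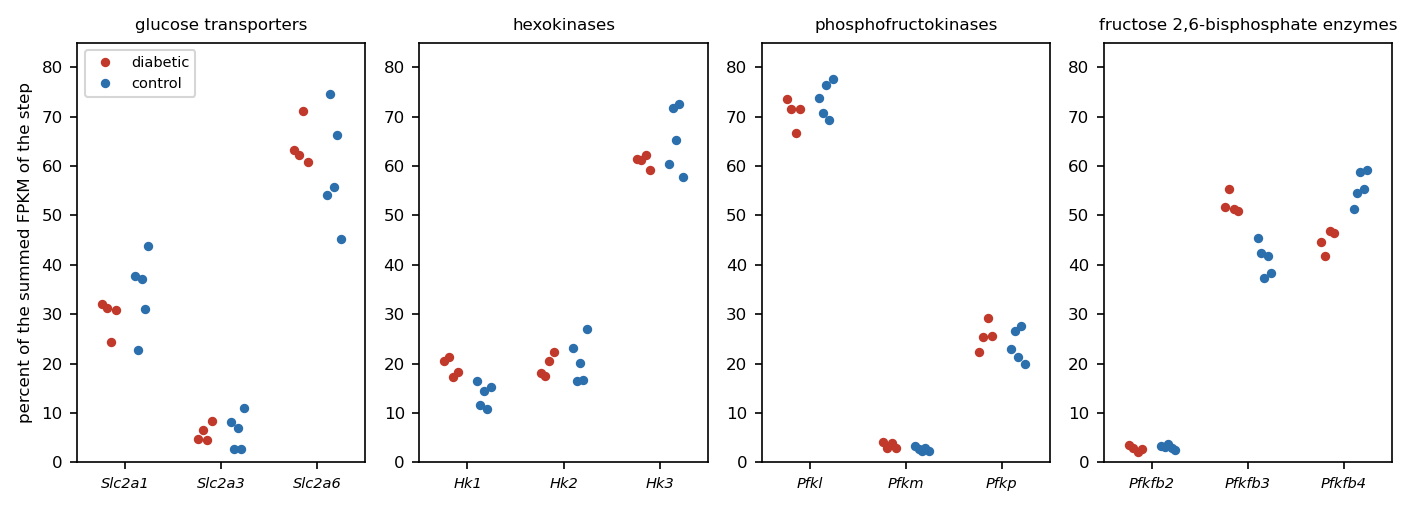
Share of each gene in the summed FPKM of its step (percent, vertical axis) for glucose transporters, hexokinases, phosphofructokinases and fructose 2,6-bisphosphate enzymes, with 1 point for each of the 4 diabetic samples (red, left) and 5 control samples (blue, right). The shares of Hk1, Pfkfb3 and Pfkfb4 do not overlap between the groups: Hk1 holds 17.3% to 21.4% in diabetic samples and 10.7% to 16.5% in control samples.

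In the triose part of glycolysis, the steps from aldolase to pyruvate kinase, all 4 members tested by name had negative fold changes, with a median of -0.30, and 1 (Tpi1) passed. Pkm, pyruvate kinase of muscle type, makes pyruvate and ATP and was the most abundant of the 31 genes. It had 586, 558, 492 and 535 FPKM in diabetic samples 1 to 4, against 682, 651, 822, 607 and 834 FPKM in control samples 1 to 5. The groups did not overlap, yet the log2 fold change of -0.40 (SE 0.13) had an adjusted p of 0.10 and passed under none of the alternatives tried. A value per gene cannot separate the PKM1 and PKM2 splice forms. Aldoa, the main aldolase, had 429, 415, 402 and 379 FPKM in diabetic samples, against 466, 378, 553, 441 and 532 FPKM in control samples (log2 fold change -0.21, SE 0.13, adjusted p = 0.36), and control sample 2 was below every diabetic sample. Aldoc, the brain-type aldolase, was near the lower end of detection at 1.24 to 1.81 FPKM in diabetic samples and 1.38 to 1.85 FPKM in control samples, and Aldoa made up 99.6% of aldolase FPKM in both groups.

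Of the rows recognised by UniProt entry, Pgk1, phosphoglycerate kinase, had 162, 194, 172 and 199 FPKM in diabetic samples and 229, 196, 250, 186 and 278 FPKM in control samples (log2 fold change -0.31, SE 0.14, adjusted p = 0.21). Eno1, enolase, had 270, 286, 316 and 300 FPKM in diabetic samples and 319, 391, 367, 294 and 387 FPKM in control samples (log2 fold change -0.26, SE 0.12, adjusted p = 0.23). In both, control sample 4 lay among the diabetic values. Gapdh, glyceraldehyde 3-phosphate dehydrogenase, is uncertain. The table holds 217 rows that match it, 206 of them processed pseudogenes, and the protein-coding row took 29.5% to 42.7% of their summed reads in diabetic samples and 27.8% to 39.6% in control samples. That row averaged 158 ± 30.5 FPKM in diabetic samples and 145 ± 21.0 FPKM in control samples (log2 fold change 0.11, SE 0.16, adjusted p = 0.73).

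The 2 genes of its side branches did not pass, also by voom and at an unadjusted p below 0.05. Bpgm, which makes 2,3-bisphosphoglycerate, averaged 4.63 ± 1.42 FPKM in diabetic samples and 4.42 ± 1.75 FPKM in control samples (log2 fold change 0.07, SE 0.22, adjusted p = 0.87). Gpd2, the mitochondrial glycerol 3-phosphate dehydrogenase, averaged 5.88 ± 1.36 FPKM in diabetic samples and 5.94 ± 1.05 FPKM in control samples (log2 fold change -0.02, SE 0.16, adjusted p = 0.96).

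**Figure D4:**
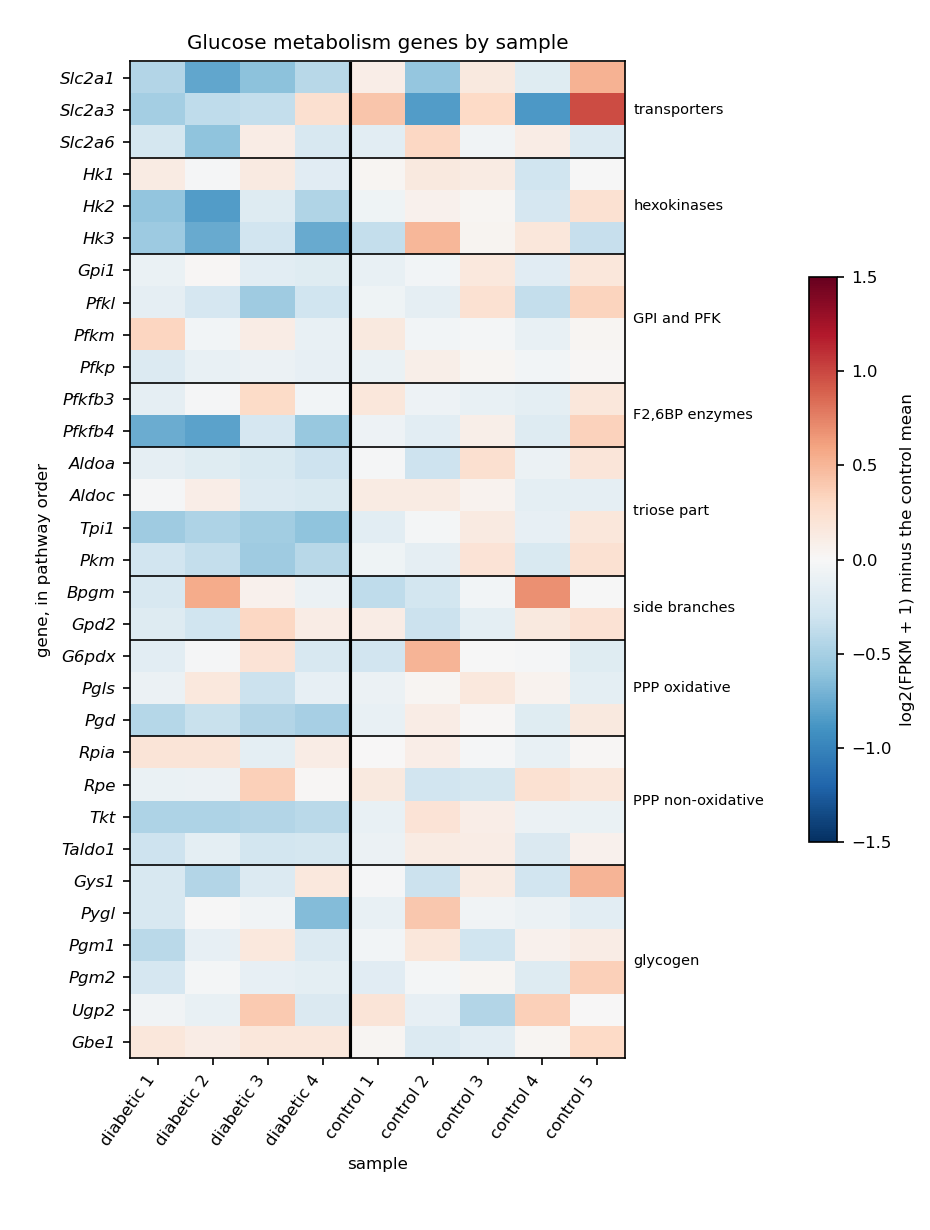
Level of the 31 genes (vertical axis, in pathway order) in diabetic samples 1 to 4 and control samples 1 to 5 (horizontal axis), as log2(FPKM + 1) minus the mean of the control samples, with red above and blue below that mean. The rows of Tpi1, Tkt, Pgd, Pfkfb4 and Pkm are blue in all 4 diabetic samples, as are other rows, such as Slc2a1, Hk2, Hk3 and Taldo1. Slc2a3 shows the widest spread among control samples (2.03 to 9.85 FPKM).

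The pentose phosphate path had 2 of 7 members that fell, Pgd in the oxidative branch and Tkt in the non-oxidative branch, and 0 that rose (0 of 7 also at an unadjusted p below 0.05 and by voom). Over all genes tested, 2.08% fell and 2.68% rose. G6pdx, glucose 6-phosphate dehydrogenase and the entry step, had 57.2, 62.8, 74.0 and 54.0 FPKM in diabetic samples 1 to 4, against 51.9, 90.9, 63.4, 63.1 and 56.0 FPKM in control samples 1 to 5. The groups overlapped throughout (log2 fold change -0.05, SE 0.16, adjusted p = 0.88). Pgls, the lactonase between G6pdx and Pgd, had 31.6 to 44.7 FPKM in diabetic samples and 36.1 to 44.7 FPKM in control samples (log2 fold change -0.09, SE 0.11, adjusted p = 0.67). Within the oxidative branch the entry enzyme and the lactonase thus overlapped between groups, and the last enzyme did not. That Pgd changed more than G6pdx was not tested.

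Taldo1, transaldolase, works beside transketolase. It had 189, 213, 194 and 195 FPKM in diabetic samples, against 222, 256, 254, 202 and 246 FPKM in control samples (log2 fold change -0.25, SE 0.11, adjusted p = 0.20), with diabetic sample 2 above control sample 4 as the only overlap. Rpia and Rpe, the isomerase and epimerase of the 5-carbon sugars, had positive fold changes. Rpia had 7.30 to 9.48 FPKM in diabetic samples and 7.46 to 8.85 FPKM in control samples (log2 fold change 0.09, SE 0.10, adjusted p = 0.64), with 3 of 4 diabetic samples above every control sample. Rpe averaged 8.89 ± 1.53 FPKM in diabetic samples and 8.62 ± 1.64 FPKM in control samples (log2 fold change 0.04, SE 0.15, adjusted p = 0.89).

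Among the 6 genes of glycogen metabolism 0 passed, also at an unadjusted p below 0.05 and by voom, and their median fold change was -0.14. Gys1, glycogen synthase, averaged 3.42 ± 0.789 FPKM in diabetic samples and 4.08 ± 1.25 FPKM in control samples (log2 fold change -0.18, SE 0.18, adjusted p = 0.59). Gbe1, the branching enzyme, had 4.99, 4.76, 4.98 and 4.99 FPKM in diabetic samples and 4.41, 3.63, 3.77, 4.43 and 5.55 FPKM in control samples. It had the highest fold change of all 31 genes at 0.16 (SE 0.11, adjusted p = 0.45), and control sample 5 alone lay above the diabetic samples. Pygl, the liver-type glycogen phosphorylase, had 65.8, 77.0, 74.9 and 49.3 FPKM in diabetic samples and 71.6, 103, 75.0, 73.1 and 69.4 FPKM in control samples (log2 fold change -0.24, SE 0.16, adjusted p = 0.41). Ugp2, which makes UDP-glucose for glycogen and other sugars, averaged 54.1 ± 10.9 FPKM in diabetic samples and 54.2 ± 11.2 FPKM in control samples (log2 fold change 0.00, SE 0.17, adjusted p = 0.99).

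The phosphoglucomutases carry older symbols in the table. Its row named Pgm1 on chromosome 5 has the UniProt entry PGM2, and its row named Pgm2 on chromosome 4 has the UniProt entry PGM1, the main enzyme between glucose 1-phosphate and glucose 6-phosphate. The row named Pgm1 had 14.5 to 22.0 FPKM in diabetic samples and 15.8 to 22.1 FPKM in control samples (log2 fold change -0.14, SE 0.13, adjusted p = 0.57). The row named Pgm2 had 12.9 to 15.2 FPKM in diabetic samples and 13.5 to 20.3 FPKM in control samples (log2 fold change -0.14, SE 0.12, adjusted p = 0.55).

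Summed over the 31 genes, the level was 2082, 2089.8, 2036 and 1947 FPKM in diabetic samples 1 to 4, against 2390.5, 2468, 2772, 2302 and 2777 FPKM in control samples 1 to 5. The groups did not overlap, and most of this sum is Pkm, Aldoa, Taldo1 and Tpi1. Within the control group the genes did not move as a block. Control sample 5 was the highest control sample for 14 of 31 genes, among them Slc2a1, Slc2a3, Hk2, Tpi1 and Pkm, and control sample 2 for 10, among them Hk3, G6pdx, Tkt, Taldo1 and Pygl. Control sample 4 was the lowest control sample for 14. Among diabetic samples, sample 3 was the highest for 12 genes, including Hk1, Hk2, Hk3, Pfkfb3 and Pfkfb4. This was the diabetic sample with the least T cell marker RNA and the highest macrophage marker sum (10247 FPKM), while control sample 2 had the highest macrophage marker sum of all (11570 FPKM). The part of the cell mixture in these patterns was not tested.

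**Figure D5:**
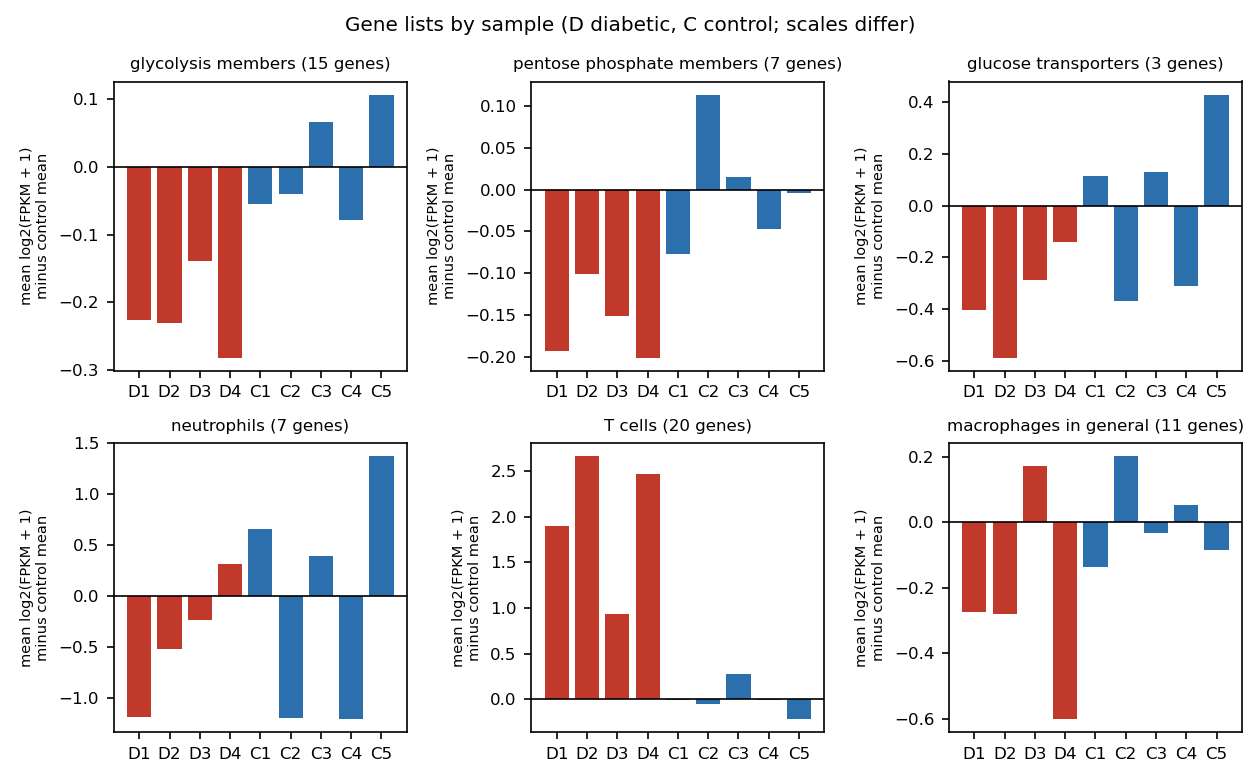
Mean log2(FPKM + 1) of a gene list in each sample minus the mean of the control samples (vertical axes, with a scale for each panel), for members of glycolysis, members of the pentose phosphate path and glucose transporters (top) and for markers of neutrophils, T cells and macrophages (bottom), in diabetic samples 1 to 4 (red, D1 to D4) and control samples 1 to 5 (blue, C1 to C5). The glycolysis bars lie between -0.28 and -0.14 in diabetic samples and between -0.08 and 0.11 in control samples, and the T cell bars between 0.93 and 2.66 in diabetic samples and between -0.22 and 0.28 in control samples.

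Other genes of the same routes were read from lists chosen by function, and 0 passed in any of the 6 lists by limma on FPKM, against 1 by voom (Slc16a3). Fold changes were positive in 7 of 11 further glycolysis genes (median 0.11), 3 of 5 further pentose phosphate genes (median 0.24) and 9 of 14 transcription factors and sensors (median 0.07). They were negative in 2 of 3 further transporters (median -0.09), 12 of 17 further glycogen genes (median -0.08) and 6 of 11 genes of pyruvate fates (median -0.02). The counts at an unadjusted p below 0.05 that follow stand beside 22.4% of all genes tested. Of 3 further hexose transporters tested, 0 had an unadjusted p below 0.05. Of 11 further glycolysis genes 3 did: Gpd1l, a relative of cytosolic glycerol 3-phosphate dehydrogenase, averaged 24.8 ± 5.77 FPKM in diabetic samples and 17.1 ± 1.51 FPKM in control samples (log2 fold change 0.48, SE 0.15, adjusted p = 0.097), and Eno2, the neuronal enolase, averaged 1.03 ± 0.218 FPKM in diabetic samples and 1.63 ± 0.268 FPKM in control samples (-0.38, SE 0.12, adjusted p = 0.11). Of 5 further pentose phosphate genes 1 did, Prps1, which turns ribose phosphate into the precursor of nucleotides (log2 fold change 0.42, SE 0.15, adjusted p = 0.13). Of 17 further glycogen genes 3 did, among them Nhlrc1, the ubiquitin ligase malin, which had 0.610 to 0.857 FPKM in diabetic samples and 0.870 to 1.31 FPKM in control samples without overlap (-0.34, SE 0.12, adjusted p = 0.12). All diabetic values of Nhlrc1 were below 1 FPKM, so it passed the filter through control samples alone, and the gap is no support. Over all genes tested, such a gap was seen in 4.60% in the lower direction.

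Of the 11 genes of pyruvate fates next to glycolysis, 4 had an unadjusted p below 0.05, and their fold changes ran from -0.71 to 0.69. Slc16a3, which encodes the lactate exporter MCT4, had 47.8, 38.8, 40.7 and 46.1 FPKM in diabetic samples 1 to 4, against 68.2, 49.7, 80.2, 61.8 and 109 FPKM in control samples 1 to 5. The groups did not overlap, and the log2 fold change of -0.71 (SE 0.19) had an adjusted p of 0.062 by limma on FPKM and of 0.040 by voom. Mpc1, a subunit of the carrier that takes pyruvate into mitochondria, had 12.8, 13.02, 16.6 and 12.7 FPKM in diabetic samples, against 8.63, 8.35, 4.20, 13.9 and 8.05 FPKM in control samples, where control sample 4 overlapped (log2 fold change 0.69, SE 0.24, adjusted p = 0.13). Among 14 transcription factors and sensors of the path 2 had an unadjusted p below 0.05, Arrdc4, an arrestin-like gene driven by glucose (-0.39, SE 0.17, adjusted p = 0.20), and Mlxip, a glucose-sensing transcription factor (0.24, SE 0.11, adjusted p = 0.22).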

How the data were processed

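Messenger RNA of 9 samples, 4 diabetic and 5 control, was measured by RNA sequencing of libraries made with a SMARTER kit, per the labels' protocols. The authors deposited 1 table of FPKM values with gene name, length, position and biotype for 41096 genes, per the file headers. GRCm38 and mm10 stand in the submitters' processing notes, but the identifiers carry the name of the C57BL/6NJ strain. Compared with GENCODE genes of GRCm38, 29735 names were shared, of which 29686 had the same chromosome and 0 the same start, so positions of the table are not given. The sources used here give no aligner, counting tool or strand setting, so overlapping and antisense genes cannot be separated. All 9 sample columns were matched by title and 0 were left over.

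FPKM times gene length gave whole reads for 100% of values within 0.05, and the implied divisors equal median-of-ratios factors, so the deposited values are already scaled between samples. Depth was 14156421 to 16169060 reads in genes. It limits the precision of low genes, and duplicates from PCR cannot be recognised in these values.

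limma 3.58.1 in R 4.3.3 was fitted on log2(FPKM + 1) with group as the only factor and with trend and robust moderation. Genes needed 1 FPKM or more in 4 or more samples. Tests were two-sided, and Benjamini-Hochberg adjustment ran over all 11193 genes tested with a threshold of 0.05. The added 1 FPKM makes fold changes of low genes smaller than they are. Since the unit is FPKM, count tests were not used, and limma's voom on the whole reads served as an alternative. The fit was tested on simulated data. Pfkfb2, under the filter, had an exact permutation test over samples (scipy 1.17.1).

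All 36 genes are named. Other pathway genes are counted per list, and up to 2 per list with the smallest p are named where 0 passed; 1 gene that this rule takes is not reported here. The members, lists and motifs were chosen with earlier results of these data known, so they are no independent support. Where several rows carried the same symbol, the row with the highest mean was read and values were not combined. For 422 unnamed protein-coding rows the symbol was taken from the UniProt entry in the description. Promoters are RefSeq sequences on GRCm38.p6. Alternatives were pseudocounts of 0.1 and 0.01, no filter, a filter of 5 FPKM, scaling to the sample sum or upper quartile, median of ratios without marker genes, no trend, array weights, voom, a replicate block and leaving out each sample. Replicate numbers are not said to mark animals, litters or days. Deviations of samples with the same number correlated at 0.023, 0.16, -0.26 and -0.18, so the numbers were not used as pairs.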

Additional observations from a re-analysis of the deposited data

Results flagged for a closer look

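In 70 groups of values checked, 1 for each of 35 genes in diabetic and in control samples, 5 held a sample that stood apart from the rest of its group, and chance alone flags about 1 in 20. Slc2a3 had 5.46 FPKM in diabetic sample 4, while the other diabetic samples had 2.87 to 3.27 FPKM. Gbe1 had 4.76 FPKM in diabetic sample 2, just under 4.98 to 4.99 FPKM in the other diabetic samples. Pfkfb2 had 0.647 FPKM in diabetic sample 1, against 0.511 to 0.530 FPKM in the others. Pygl had 103 FPKM in control sample 2, above 69.4 to 75.0 FPKM in the other control samples. Bpgm had 7.42 FPKM in control sample 4, above 3.03 to 4.22 FPKM in the other control samples. Erythroid marker RNA summed to 158 FPKM in the same control sample 4, the highest sum of the 9 samples. Control sample 5 had a sum of 129 FPKM with Bpgm at 4.22 FPKM. Diabetic sample 2 had a sum of 41.5 FPKM with Bpgm at 6.67 FPKM. The part of erythroid RNA in the Bpgm values was not tested.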

How the results depend on the processing

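The 4 members that fell under the fit as reported were 1 without a filter on low values, which tests more genes, and 0 with a replicate block, and over the fits that left out 1 sample they ranged from 0 to 6. Under the other 9 settings they were 3 to 6, and 0 members rose under any setting. Of the 4, Tpi1 passed in 10 of 11 settings other than leaving out a sample, Tkt and Pgd in 9 and Pfkfb4 in 6. The median fold change of the members stayed between -0.22 and -0.11. All 31 members kept their sign under 7 settings, 30 when scaled to the sample sum or with the block, 27 with array weights, and 27 to 30 without 1 sample. Over all genes, 233 fell and 300 rose. Without a filter 54 fell and 129 rose, with a filter of 5 FPKM 187 rose, with array weights 627 fell and 677 rose, and with the replicate block 17 fell and 45 rose. Fits without 1 sample gave 49 to 551 lower and 97 to 619 higher genes. Scaling to the sample sum turned the split to 302 lower and 260 higher genes. The cause of these shifts was not tested. Deviations of samples with the same number did not correlate more than those with different numbers (-0.30 to 0.33), which cannot exclude shared litters or days. The fit with the replicate block left out control sample 5. The make-up of each step depends on gene length: from reads not divided by length, Hk1 held 35.1% in diabetic and 26.2% in control samples and Pfkfb3 62.6% and 51.5%, in the same direction. Aldoc, Pfkm and Pfkfb2 rest on few reads. In simulated data of this comparison (11207 genes tested) the fit recovered 69 of 100 genes changed 2-fold and 96 of 100 changed 4-fold, with 12 other genes called. Changes as small as those of the members (log2 fold change -0.59 to 0.16) were not simulated, so recovery at that size is not known.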
